A study of Homo sapiens with 30 samples.

Results

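Wild-type Jurkat cells that had been activated for 36 h were compared with the same line at rest, gene by gene. The comparison was defined by the labels: the 3 libraries titled WT at 36 h against the 3 titled WT at 0 h, 6 of the 30 libraries in the series. It and the gene lists below were chosen with earlier results of these data known. Of 54300 gene symbols in the deposited tables, 21554 carried enough counts to be tested. Jurkat E6-1 is an established line from a human T cell acute leukaemia, here obtained from ATCC and grown in RPMI 1640 with fetal calf serum. The 0 h group is labelled unstimulated. The treatment text, written for a cytokine secretion assay of 48 h, names 200 ng/ml of phorbol ester (PMA) with 300 ng/ml of ionomycin, and the sequenced cells are taken here to have had the same agents. The time label carries no unit; hours were taken from that text. The series follows the wild-type line, and a line whose label is KO SLAMF6 ISO1, at 0, 6, 12, 24 and 36 h with 3 libraries each. The series title instead speaks of overexpression of isoform 3; the labels were followed, and what the KO values stand for rests on them. The KO line carries a deletion written SLAMF6∆17-65, and the labels do not say how many clones it represents. Every 36 h title has the letter C, whereas the other WT titles have A and the other KO titles have B. The letters are not explained, so the effect of time and anything that separates A from C libraries cannot be told apart. The labels also do not state that libraries of a group came from separate cultures, and the p-values then measure only the spread between these libraries, which may be technical.

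PMA stands in for diacylglycerol and switches on protein kinase C and the Ras-MAP kinase route, while ionomycin lets calcium into the cell and so activates calcineurin and the NFAT factors. Together they replace the signals that the T cell receptor would send, and they converge on NFAT, AP-1 and NF-kB, the factors long known to drive the IL2 gene in Jurkat cells. Resting Jurkat cells divide continuously and keep traits of the immature thymocyte they arose from.

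Levels are given in CPM, the standard unit of a gene's counts relative to those of its whole library, after scaling of the libraries by the trimmed mean of M-values. They are shares of a library and are not corrected for gene length, so levels are compared between times and not between genes. Changes are log2 ratios of 36 h to 0 h from a quasi-likelihood fit of all 30 libraries in edgeR, with a standard error (SE) and a p adjusted over all 21554 genes. The SE was derived as the size of the log2 change divided by the square root of the F statistic of its test. It is therefore approximate. A gene is called where the adjusted p is under 0.05. Values that follow "log2" are such changes, and all others with the unit CPM are levels. In bulk RNA, fewer cells of a kind and less RNA per cell cannot be told apart.

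The libraries at rest held 26489199, 7593309 and 28234040 counts, and those at 36 h held 21827464, 8535557 and 20682473. The replicate 2 library was the shallowest in each group. On a principal component analysis of these 6 libraries the leading axis held 60.9% of the variance and separated the times, and the next held 13.1%. On that next axis replicate 2 lay apart in both groups, at -68.6 against 42.5 and 35.1 at rest. At 36 h it was at -24.5 against 9.16 and 6.37. The part of depth in this was not tested. Mitochondrial transcripts made up 5.96 to 6.02% of the counts at rest and 8.10 to 9.35% at 36 h, mostly ribosomal RNA of the mitochondrion; the part of this shift in the changes below was not tested. The T cell markers summed to 4601 to 4701 CPM at rest and 4873 to 5226 CPM at 36 h. All 12 were called, 7 higher and 5 lower. Of markers of other cell types, the 9 erythroid ones summed to 0.220 to 0.543 CPM at rest and 4.66 to 5.36 CPM at 36 h. Only AHSP among them could be tested, and it was called higher (log2 change 4.79, SE 0.63, adjusted p = 1.3e-07), whereas HBA1 and HBD had 0 counts in all 6 libraries. The 14 monocyte markers summed to 9.23 to 11.5 CPM at rest and 9.99 to 13 CPM at 36 h, and 12 markers of adherent cells to 6.56 to 8.17 CPM and 5.98 to 7.31 CPM. The 12 B cell markers summed to 47.5 to 51.6 CPM and 45.4 to 51.9 CPM, carried mainly by CD79A and BLK. These moved in opposite directions, CD79A from a mean of 31.1 to 21.9 CPM and BLK from 10.3 to 23.4 CPM. Of the 9 tested 1 was called higher and 2 lower. The 12 NK cell markers summed to 18.3 to 19.9 CPM at rest and 33.5 to 38.1 CPM at 36 h, with the largest gains in NKG7 and KLRD1.

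At 36 h 8437 genes were called, 39.1% of those tested, of which 4344 were higher (20.2%) and 4093 lower (19%). The counts of each gene list below are to be read against these shares, which cover genes of every level. Calls were more frequent among the 9541 genes with a mean of at least 10 CPM at either time. At least 2720 of these were called higher and 3044 lower, counting only genes whose 6 libraries did not overlap. At least a 2-fold change was called for 2292 genes upward (10.6%) and 1714 downward (7.95%), and a 16-fold change for 236 upward and 121 downward. The median log2 change of all genes tested was 0.01. For 10673 genes (49.5%) the 3 libraries of one time lay wholly above the 3 of the other. The genes with the greatest rises among those reaching 10 CPM were mostly of secreted factors and surface molecules: CSF2, XCL2, IL2, CD200, XCL1, MB, CCL20, CCL4, TNFRSF9, IL3, CLDN1 and VCAM1. The greatest falls were in DNTT, RAG2, MYO7B, LINC00977, RAG1, HSPA6, TSHR, PDGFC, CD1E, ADA, ARPP21 and NEIL3, among them the antigen receptor recombination genes of the immature T cell.

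**Figure D1:**
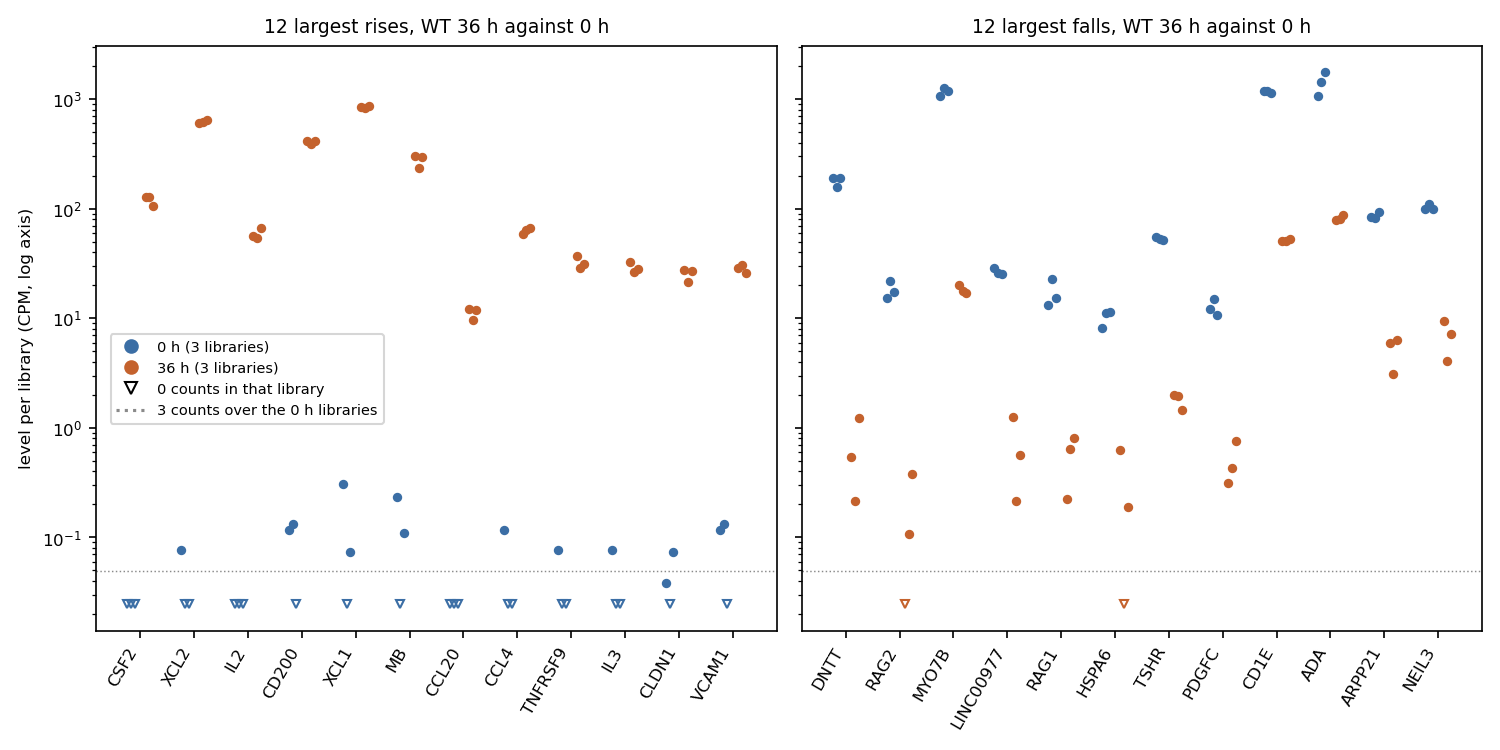
Level of the 12 genes with the largest rises and the 12 with the largest falls in each of the 3 libraries at 0 h (blue) and 36 h (orange), on a log axis of CPM; open triangles are libraries with 0 counts and the dotted line is 3 counts over the 0 h libraries. In no gene shown do the times overlap, which was a condition for being shown.

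**Figure D2:**
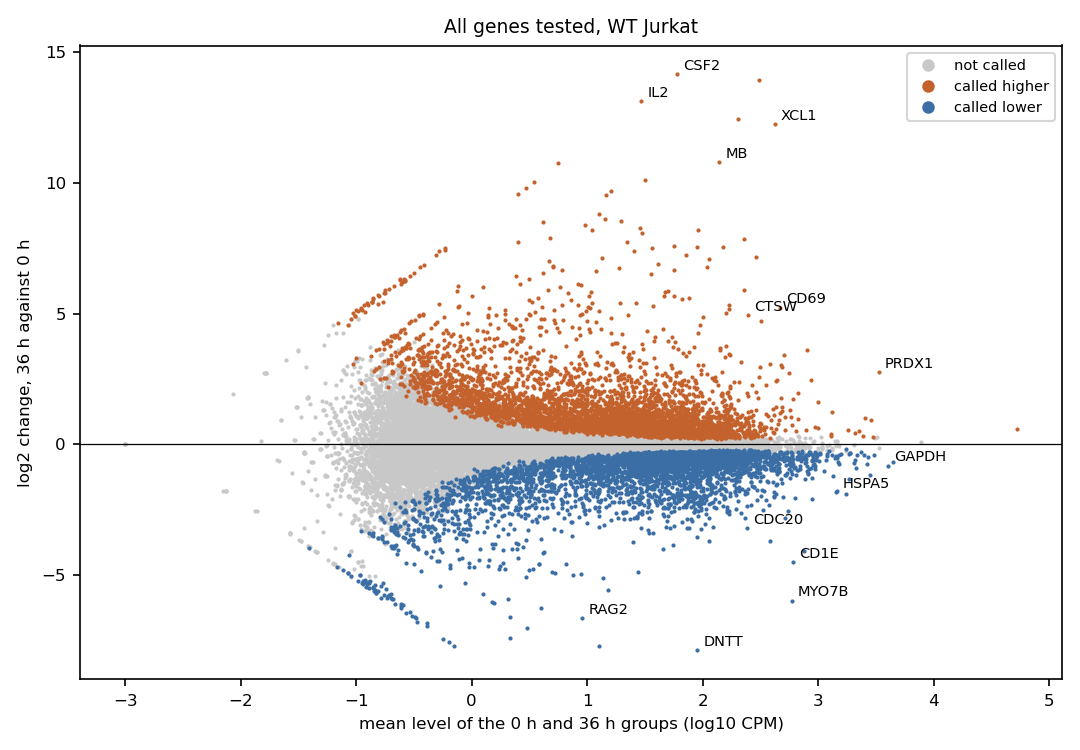
Mean level of the 0 h and 36 h groups (log10 CPM) against the log2 change for all 21554 genes tested, with the 4344 genes called higher in orange and the 4093 called lower in blue. The straight diagonal edges at low level are genes with 0 counts at one time, whose fitted change depends on a prior count.

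Among gene lists with 12 or more members tested, secreted cytokines had the second highest median change. Of the 31 in the list 23 were tested: 16 of 23 were higher and 3 lower, with a median log2 change of 2.69, or 2.47 with genes absent at one time held at the value that 3 counts would give. IL2, the T cell growth factor, had no count in any library at rest and 56.0, 54.4 and 66.6 CPM at 36 h. That is at least 1191-fold higher (adjusted p = 1.1e-10). CSF2, which encodes GM-CSF, likewise went from 0 counts to 129, 126 and 105 CPM, at least 2426-fold higher (adjusted p = 1.6e-12). IL3, a growth factor for blood progenitors, had 2 counts in all at rest and 32.4, 26.6 and 28.4 CPM at 36 h (adjusted p = 3.2e-08). All 3 libraries at 36 h were far above all 3 at rest for each of these genes.

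Other ligands rose as well. TNF stood at 1.40, 1.07 and 0.366 CPM at rest and 23.3, 21.8 and 24.0 CPM at 36 h, a log2 change of 4.67 (SE 0.29, adjusted p = 7.2e-15). TNFSF14, the ligand LIGHT, went from 0.892, 0.536 and 0.293 to 118, 108 and 114 CPM, a log2 change of 7.60 (SE 0.66, adjusted p = 4.0e-11). IL13, a type 2 cytokine, went from 0.272, 1.34 and 0.146 to 23.4, 17.2 and 19.9 CPM (log2 change 5.67, SE 0.53, adjusted p = 1.1e-10). IFNG, the gene of interferon gamma, had 1 count at rest and reached only 4.34, 6.02 and 4.85 CPM (adjusted p = 4.7e-07), so it rose and stayed low. IL16, TNFSF8 (CD30 ligand), TNFSF10 (TRAIL), LTA and IL23A rose by log2 2.69, 3.87, 1.68, 2.51 and 1.72. The falls were IL32, from 113 to 75.4 CPM, and the scarce IL10 and IL26, under 1 CPM in every library. OSM, TGFB1 and FASLG were not called, and IL4, IL5, IL9, IL17A and IL21 carried too few counts to be tested.

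The promoter stretches before the start sites of IL2 and CSF2 are shown because these genes were silent in every resting library, and that of CCL20 because it holds a kB match. They run 200 bases up to the RefSeq start of each gene in GRCh38.p14, 5′ to 3′ on the gene's strand. Capitals mark matches on either strand to an NFAT core (GGAAA), an AP-1 site (TGANTCA) or a kB site (GGG and TTTCC with any 2 bases between them); every kB match holds an NFAT core.
IL2 (chr4:122456726-122456925, minus strand): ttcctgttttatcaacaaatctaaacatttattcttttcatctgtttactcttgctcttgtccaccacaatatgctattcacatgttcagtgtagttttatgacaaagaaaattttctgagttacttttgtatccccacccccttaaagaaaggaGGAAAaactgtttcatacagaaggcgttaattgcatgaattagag
CSF2 (chr5:132073589-132073788, plus strand): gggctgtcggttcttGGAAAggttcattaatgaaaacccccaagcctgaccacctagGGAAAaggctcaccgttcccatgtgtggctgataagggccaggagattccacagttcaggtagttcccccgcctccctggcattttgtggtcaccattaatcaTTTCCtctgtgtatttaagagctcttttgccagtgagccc
CCL20 (chr2:227813642-227813841, plus strand): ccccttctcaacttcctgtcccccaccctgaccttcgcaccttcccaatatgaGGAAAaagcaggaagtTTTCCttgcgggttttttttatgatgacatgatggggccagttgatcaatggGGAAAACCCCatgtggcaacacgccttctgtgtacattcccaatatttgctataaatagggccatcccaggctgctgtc
In windows of 300 bases around the start (250 before, 50 after), the NFAT core was present in 22 of 26 (84.6%) of the cytokine promoters and 12 of 14 (85.7%) of the chemokine promoters with an entry, against 61.2% of all 35116 promoters in the table. The AP-1 letters were in 4 of 26 (15.4%) and 2 of 14 (14.3%), against 7.71%. For the kB letters the counts were 4 of 26 (15.4%), 4 of 14 (28.6%) and, in the NF-kB list, 7 of 26 (26.9%), against 1.91%. These are descriptions of letters in fixed windows and were not tested.

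Chemokines, the secreted attractants of leukocytes, had the highest list median, 4.55 (2.85 with absent genes at the 3-count value). Of 17 tested 10 were higher and 0 lower. XCL1 and XCL2, the near-identical lymphotactin pair, held 0.310, 0 and 0.0732 CPM (XCL1) and 0.0776, 0 and 0 CPM (XCL2) at rest. At 36 h XCL1 reached 839, 832 and 858 CPM (adjusted p = 4.8e-11) and XCL2 604, 619 and 638 CPM (adjusted p = 2.6e-11), and counting may have split reads between them. CCL4, an attractant of T cells and monocytes, had 3 counts at rest and 59.0, 64.0 and 65.9 CPM at 36 h (adjusted p = 6.4e-08). CCL3, its neighbour in function, went from 0.0373 to 19.1 CPM. CCL20, the ligand of CCR6, rose from 0 counts to 12.2, 9.56 and 12.0 CPM, at least 227-fold (adjusted p = 1.7e-07). IL8 (CXCL8), the neutrophil attractant, rose from 0 counts to 4.75, 4.94 and 5.41 CPM, at least 102-fold (adjusted p = 3.3e-09). CCL1 went from 0.582, 0.402 and 0.586 to 20.4, 19.7 and 17.4 CPM (log2 change 5.09, SE 0.50, adjusted p = 3.0e-10). The interferon-inducible CXCL10 and CXCL11 were not called and stayed under 1 CPM in all 6 libraries.

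Among surface receptors of activated T cells 16 of 26 were higher and 2 lower, with a median log2 change of 1.47. CD69, an early activation antigen that retains lymphocytes in tissue, held 26.4, 24.0 and 22.8 CPM at rest and 925, 889.6 and 930.1 CPM at 36 h, a log2 change of 5.23 (SE 0.21, adjusted p = 5.9e-20). TNFRSF9 (4-1BB), a costimulatory receptor, had 2 counts at rest and 37.2, 29 and 31.3 CPM at 36 h (adjusted p = 3.7e-13). ICOS, another costimulator, went from 1.94, 1.07 and 1.68 to 110.2, 97.8 and 90.5 CPM (log2 change 5.87, SE 0.59, adjusted p = 5.4e-10). TNFRSF1B, CD226, CRTAM and CD70 rose by log2 5.20, 2.53, 6.63 and 4.93. IL2RA, the alpha chain of the IL-2 receptor, rose by log2 2.92 but only to 7.42, 7.52 and 10.4 CPM. The falls were the transferrin receptor TFRC, from 658 to 228 CPM, and TNFRSF8 (CD30), from 34.2 to 9.07 CPM. FAS, CD38 and CD40LG were not called.

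Receptors and ligands that restrain T cells rose with them: 11 of 16 were higher and 1 lower, with a median log2 change of 1.97. CD200, a ligand that quiets myeloid cells, went from 0.116, 0.134 and 0 CPM to 418, 389.7 and 409.9 CPM (adjusted p = 5.7e-14; 4 counts in all at rest). BTLA went from 1.24, 0 and 0.220 to 186, 170.3 and 193 CPM, a log2 change of 8.20 (SE 0.55, adjusted p = 3.5e-14). PDCD1, which encodes PD-1, went from 1.40, 2.41 and 2.31 to 219.8, 226 and 207 CPM (log2 change 6.80, SE 0.50, adjusted p = 3.1e-13). CD96 and C10orf54 (VISTA) rose by log2 1.69 and 2.25. CTLA4 and CD274 (PD-L1) also passed the test, reaching 2.75 and 10.2 CPM. HAVCR2 and TIGIT were not called, LAG3 was too scarce to test, and LAIR1, a collagen receptor, fell, with a log2 change of -1.37.

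SLAMF6 itself, the receptor deleted in part in the other line, rose in the wild-type cells. Its level was 19.0, 25.0 and 19.4 CPM at rest and 101, 102 and 112 CPM at 36 h, a 4.96-fold ratio of means and a log2 change of 2.34 (SE 0.14, adjusted p = 2.6e-15). The groups did not overlap. In the line labelled KO it was 19.3 ± 1.47 CPM at rest and 139 ± 12.8 CPM at 36 h (SD, n = 3), and a count over the whole gene does not check a deletion of part of it. In the list of the SLAM family, receptors that bind one another between blood cells, and of their signalling partners, 8 of 13 were higher and 1 lower. CD48, a ligand of CD244, rose by log2 3.46 (SE 0.20, adjusted p = 5.5e-16), from 32.0, 28.5 and 24.2 to 330.4, 283 and 319.8 CPM. LY9 and PTPN11, the phosphatase SHP-2, rose by log2 1.70 and 1.84. SH2D1A, which encodes the adaptor SAP, was the member that fell, from 251, 277 and 225 to 107, 105 and 124 CPM (log2 change -1.16, SE 0.18, adjusted p = 1.8e-06).

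Transcription factors that follow calcium and kinase signals were still high at 36 h. Of the list 22 of 36 were higher and 4 lower, with a median log2 change of 1.14. EGR2, a zinc finger factor tied to restraint of T cells, went from 1.05, 0.402 and 1.03 to 194, 161 and 183 CPM, a log2 change of 7.56 (SE 0.37, adjusted p = 1.1e-17). EGR1 went from 8.84, 10.7 and 8.13 to 154, 176 and 188 CPM (log2 change 4.26, SE 0.18, adjusted p = 2.4e-19). NR4A2, an orphan nuclear receptor, went from 0.349, 0 and 0.0732 to 60.7, 53.2 and 58.5 CPM (log2 change 8.27, SE 0.81, adjusted p = 2.8e-10). NFATC1, whose own promoter is a known NFAT target, rose by log2 3.40 (SE 0.29, adjusted p = 1.4e-11) to 289, 313 and 338 CPM. IER3, an early response gene, rose by log2 5.60 (SE 0.28, adjusted p = 2.0e-17). The AP-1 members JUN, JUNB, JUND and FOS rose by log2 1.54, 1.84, 1.92 and 1.94, whereas BATF, FOSB, FOSL2, IRF4 and PRDM1 were not called. MYC, the growth regulator, fell from 257, 296 and 267 to 78.2, 66.7 and 78.3 CPM (log2 change -1.87, SE 0.35, adjusted p = 4.9e-05), and KLF6, KLF10 and TSC22D3 fell as well.

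The NF-kB list had 22 of 28 higher and 2 lower, with a median log2 change of 1.23. The subunits NFKB2 and RELB of the non-canonical branch rose from 2.37 to 32.3 CPM (log2 change 3.87, SE 0.23, adjusted p = 1.8e-15) and from 2.18 to 31.0 CPM (log2 change 3.82, SE 0.21, adjusted p = 1.7e-16). NFKB1 and REL rose by log2 1.5 and 1.79, and RELA was not called (log2 change 0.01). TNFAIP3 (A20), the deubiquitinase that shuts the pathway off, held 73.7, 71.7 and 70.6 CPM at rest and 574, 539 and 544 CPM at 36 h (log2 change 2.94, SE 0.09, adjusted p = 1.1e-22). TRAF1, an adaptor and NF-kB target, rose by log2 4.42 (SE 0.22, adjusted p = 2.2e-17). BIRC3 rose by log2 2.27 (SE 0.14, adjusted p = 7.4e-15). TRAF2 and TNFAIP8 were the members that fell.

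Negative regulators of signalling rose broadly: 22 of 40 were higher and 5 lower, with a median log2 change of 0.87. RGS16, which speeds the shut-off of G proteins, went from 0.970, 0.268 and 1.1 to 166, 124 and 137 CPM, a log2 change of 7.26 (SE 0.40, adjusted p = 2.0e-16). ZFP36L1, which destabilises AU-rich messages, went from 22.0, 21.6 and 26.7 to 668, 586 and 587 CPM (log2 change 4.70, SE 0.12, adjusted p = 8.5e-25). DUSP10, a phosphatase of stress kinases, rose by log2 3.95 (SE 0.19, adjusted p = 1.1e-17), and CBLB, a ubiquitin ligase that limits receptor signals, by log2 2.84 (SE 0.18, adjusted p = 6.0e-15). SPRY4, NAB2 and ZC3H12A (Regnase-1) rose by log2 3.11, 2.78 and 2.02. DUSP2 went from 10.2, 9.51 and 8.97 to 197, 241 and 498 CPM, with the replicate 3 library at 36 h well above the others. ZFP36L2, RCAN3, SOCS2, RGS10 and RGS14 fell.

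Genes of the T cell receptor and its proximal signalling moved in both directions, with 18 of 38 higher, 13 lower and a median log2 change of 0.32. LCP2 (SLP-76), an adaptor below the receptor, went from 60.3, 56.0 and 60.9 to 331, 302 and 303 CPM (log2 change 2.40, SE 0.13, adjusted p = 1.1e-16), and TRAT1 rose by log2 2.38. TRAC, the constant part of the receptor alpha chain, went from 278, 239 and 282 to 1527, 1310.1 and 1574 CPM (log2 change 2.46, SE 0.11, adjusted p = 2.1e-18). ZAP70 and CD28 rose by log2 1.04 and 1.13. The adhesion receptor CD2 fell from 223 to 88.5 CPM (log2 change -1.33, SE 0.09, adjusted p = 5.5e-14), and CD3G, LCK, LAT, CD7, GRAP2 and PTPRC (CD45) also fell. CD4 went from 9.93, 12.2 and 10.9 to 1.49, 1.07 and 1.98 CPM (log2 change -2.80, SE 0.29, adjusted p = 9.5e-10).

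Genes of the immature T cell and of the leukaemia fell, 19 of 35 of them, with a median log2 change of -0.79. There were 7 higher, a share near the 20.2% of all genes tested. DNTT, the terminal transferase that adds bases at receptor gene joints, went from 189.6, 158 and 188 to 0.543, 0.215 and 1.22 CPM, a log2 change of -7.89 (SE 0.36, adjusted p = 2.4e-18). RAG1 and RAG2, which together cut the receptor genes, went from 13.1, 22.9 and 15.3 to 0.226, 0.645 and 0.800 CPM (log2 change -4.95, SE 0.52, adjusted p = 1.4e-09) and from 15.2, 21.8 and 17.2 to 0, 0.107 and 0.376 CPM (log2 change -6.66, SE 0.49, adjusted p = 4.0e-13). CD1E, a lipid-binding member of the CD1 family, held 1184, 1175 and 1143 CPM at rest and 50.3, 51.1 and 52.3 CPM at 36 h (log2 change -4.51, SE 0.13, adjusted p = 5.7e-23). CD1B and CD1D fell, with log2 changes of -3.53 and -1.92, and CD1A and CD1C fell, with log2 changes of -0.63 and -0.73. ADA, adenosine deaminase, went from 1066, 1417 and 1759 to 79.2, 80.6 and 87.3 CPM (log2 change -4.10, SE 0.22, adjusted p = 8.5e-17). ARPP21, PTCRA, TCF7, BCL11B and NOTCH1 fell, with log2 changes of -4.01, -2.39, -2.21, -2.24 and -0.97. Against these, ZBTB16, which encodes PLZF of innate-like T cells, went from 0.853, 2.68 and 1.98 to 221, 238 and 213 CPM (log2 change 7.10, SE 0.28, adjusted p = 3.8e-20), and LEF1 from 295, 255 and 279.9 to 1087, 1010.3 and 1124 CPM (log2 change 1.96, SE 0.13, adjusted p = 2.9e-14). TAL1, MYB, GATA3, RUNX1 and SOX4 were not called.

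Other large falls lay outside the lists. MYO7B, an unconventional myosin, went from 1057, 1259 and 1181 to 20.2, 17.6 and 17.1 CPM (log2 change -5.99, SE 0.22, adjusted p = 1.3e-20), and the long non-coding LINC00977 from 29, 26 and 25.2 to 1.27, 0.215 and 0.565 CPM (log2 change -5.11, SE 0.36, adjusted p = 1.1e-13). TSHR, the thyrotropin receptor, fell, with a log2 change of -4.90 (SE 0.30, adjusted p = 2.7e-15), the growth factor gene PDGFC at log2 -4.6 (SE 0.38, adjusted p = 5.6e-12) and the DNA glycosylase gene NEIL3 at log2 -3.84 (SE 0.21, adjusted p = 1.3e-16). Among the rises, MB, which encodes myoglobin, went from 0.233, 0 and 0.110 to 301, 237 and 296 CPM (adjusted p = 8.3e-18). VCAM1, an adhesion ligand of endothelium, reached 28.7, 30.7 and 25.9 CPM from 4 counts at rest (adjusted p = 1.1e-14), and CLDN1, a tight junction protein, 27.5, 21.4 and 27.1 CPM from 3 counts (adjusted p = 8.5e-14).

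Factors of helper and cytotoxic lineages split, 14 of 29 higher and 4 lower. TBX21 (T-bet), the factor of type 1 helper cells, went from 0.155, 0 and 0.183 to 6.20, 8.49 and 12.5 CPM (log2 change 5.89, SE 0.56, adjusted p = 1.3e-10). BCL6, the follicular helper factor, went from 7.25, 4.29 and 5.64 to 124, 88.9 and 98.4 CPM (log2 change 4.12, SE 0.19, adjusted p = 1.3e-18). ZNF683 (Hobit) and BACH2 rose by log2 5.12 and 2.38, STAT6 and STAT3 by log2 1.83 and 1.03. EOMES, FOXP3 and STAT4 were not called, and RUNX2 fell, with a log2 change of -1.91.

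Cytotoxic granule genes were higher in 14 of 19 tested and lower in 0, with a median log2 change of 1.29. CTSW, a cathepsin of killer lymphocytes, went from 17.0, 14.5 and 15.2 to 512, 444 and 486 CPM, a log2 change of 4.94 (SE 0.16, adjusted p = 3.9e-22). GZMB (granzyme B) reached 17.0, 15.4 and 18.0 CPM from 0.116, 0.670 and 0.915 CPM (log2 change 4.94, SE 0.52, adjusted p = 1.3e-09), and PRF1 (perforin) 70.2, 56.0 and 64.9 CPM from 10.8, 15.1 and 14.1 CPM (log2 change 2.28, SE 0.35, adjusted p = 2.7e-06). The killer lectin receptors KLRK1 (NKG2D) and KLRD1 (CD94) rose by log2 5.54 (SE 0.48, adjusted p = 2.2e-11) and 5.59 (SE 0.62, adjusted p = 4.4e-09). GZMH, GZMK and GZMM were not called. KLRD1, NKG7 and GNLY are also among the NK cell markers, of which NCR1, KLRC1 and KIR3DL1 stayed under 0.5 CPM in all 6 libraries.

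MHC class I genes rose: 16 of 22 of the antigen presentation list were higher and 3 lower, with a median log2 change of 0.75. HLA-B went from 84.2, 90.3 and 87.9 to 879.9, 944 and 974 CPM (log2 change 3.42, SE 0.12, adjusted p = 2.1e-21). HLA-E and HLA-F rose by log2 2.58 and 3.63, and HLA-C by log2 2.42; these genes share sequence, and reads may have been split among them. B2M, the light chain of class I, rose from 1738, 1774 and 1546 to 3501, 3283 and 3393 CPM (log2 change 1.01, SE 0.11, adjusted p = 4.4e-09). The peptide transporter TAP1, the immunoproteasome subunits PSMB8 and PSMB9 and the class I transactivator NLRC5 rose by log2 1.79, 0.79, 1.24 and 1.28. The chaperones CALR and CANX and the proteasome activator PSME1 fell slightly. Of 15 class II genes tested 5 were higher and 0 lower. HLA-DQB1 rose by log2 2.04 to 11.4, 10.5 and 12.4 CPM, and CIITA, the class II transactivator, was not called.

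Interferon-stimulated genes rose in 47 of 54 tested, against 2 lower, with a median log2 change of 1.26. GBP2, a guanylate-binding protein of antimicrobial defence, went from 1.47, 2.41 and 2.27 to 479, 407 and 468 CPM, a log2 change of 7.84 (SE 0.30, adjusted p = 3.1e-20), and GBP5 from 2.09, 2.28 and 1.24 to 90.6, 81.8 and 99.5 CPM (log2 change 5.68, SE 0.24, adjusted p = 2.5e-19). STAT2 and IRF9, which carry the type I interferon signal to the nucleus, rose by log2 2.31 and 2.78. TRIM22, IFIT3, MX2 and OAS1 rose by log2 4.21, 2.84, 2.45 and 2.45, and ISG15 from 155 to 369.8 CPM. CMPK2 and LY6E fell, and IFI16, DHX58, RSAD2, USP18 and HERC5 were not called.

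B2M is shown as a member whose promoter holds an ISRE, the interferon response element, searched as TTTC and TTTC with any 2 bases between them, on both strands and marked in capitals where overlapping matches fuse.
B2M (chr15:44711317-44711516, plus strand): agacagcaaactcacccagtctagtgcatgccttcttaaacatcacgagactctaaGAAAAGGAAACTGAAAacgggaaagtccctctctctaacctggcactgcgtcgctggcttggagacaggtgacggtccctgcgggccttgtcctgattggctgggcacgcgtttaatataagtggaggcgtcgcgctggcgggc
Those letters occurred in 9 of 18 (50%) of the class I list promoters and 23 of 39 (59.0%) of the interferon-stimulated ones, against 3.57% of all promoters.

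**Figure D3:**
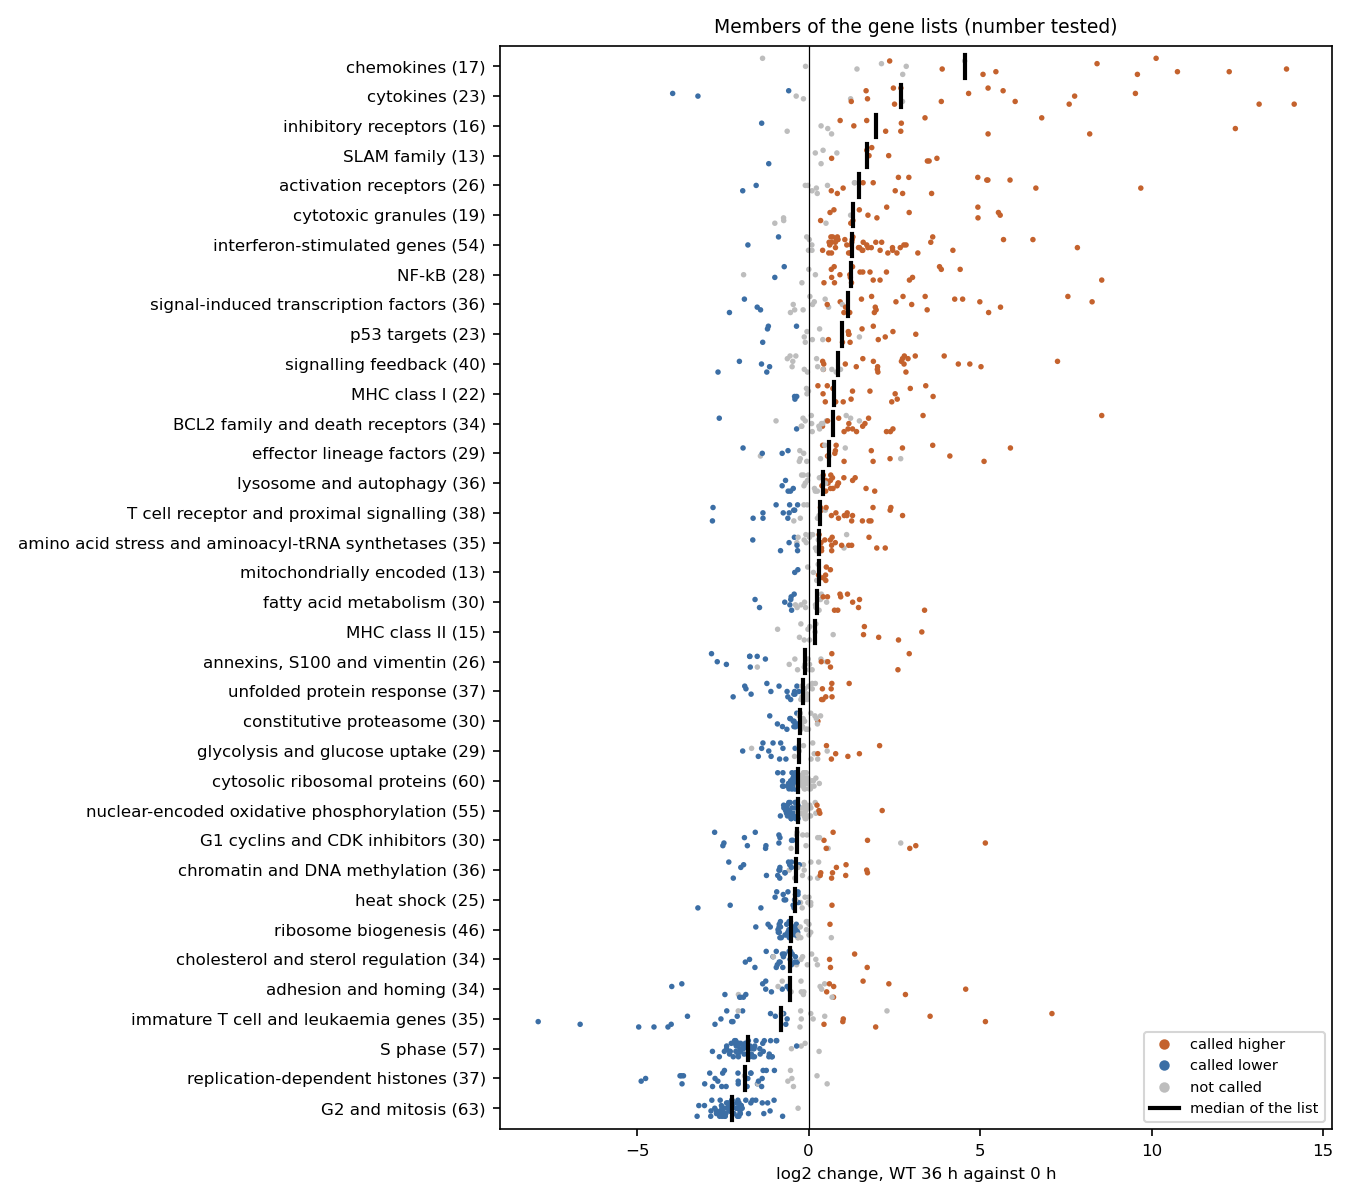
Log2 change at 36 h against 0 h of each tested member (points) of 36 gene lists, ordered by the list median (black bar), with the number tested in brackets; orange points were called higher, blue lower and grey not called. Chemokines have the highest median (4.55) and the genes of G2 and mitosis the lowest (-2.24).

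Genes of the dividing cell fell almost without exception. In the G2 and mitosis list 62 of 63 were lower and 0 higher, with a median log2 change of -2.24, and in the S phase list 53 of 57 were lower and 0 higher, with a median log2 change of -1.77. CDC20, which activates the anaphase-promoting complex, held 428, 420.4 and 468 CPM at rest and 54.8, 38.7 and 48.8 CPM at 36 h (log2 change -3.20, SE 0.14, adjusted p = 6.0e-19). BUB1B of the spindle checkpoint, cyclin A (CCNA2) and topoisomerase II (TOP2A) fell, with log2 changes of -2.82 (SE 0.10, adjusted p = 7.2e-21), -2.69 (SE 0.12, adjusted p = 5.2e-19) and -2.56 (SE 0.11, adjusted p = 2.6e-19). CDK1, CCNB1, PLK1, AURKB, MKI67 and FOXM1 fell, with log2 changes of -2.53, -2.31, -2.49, -2.74, -2.52 and -2.55. PTTG1, which encodes securin, was the exception, at 181, 162 and 163 CPM and 154, 117 and 137 CPM (log2 change -0.31, SE 0.15, adjusted p = 0.097).

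RRM2, the small subunit of ribonucleotide reductase, went from 894, 919 and 887 to 145, 112 and 129 CPM (log2 change -2.80, SE 0.11, adjusted p = 5.9e-20). GINS1 and CDC45 of the replicative helicase fell, with log2 changes of -2.39 (SE 0.12, adjusted p = 8.3e-18) and -2.11 (SE 0.11, adjusted p = 1.4e-16), and DUT, which clears dUTP, at log2 -2.04 (SE 0.11, adjusted p = 1.4e-16). MCM7, MCM4, PCNA and TYMS fell, with log2 changes of -2.06, -2.15, -1.71 and -2.13. RFC5, RPA1, SLBP and CCNE1 were not called. Of 37 replication-dependent histone genes tested 29 were lower and 0 higher, with a median log2 change of -1.87. HIST1H4C went from 773, 667 and 700.3 to 73.4, 44.4 and 47.0 CPM (log2 change -3.69, SE 0.25, adjusted p = 2.9e-14). Histone genes are near-identical copies, and the labels do not say how reads shared among them were counted.

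CDC20 and MCM6 are shown as members with the motifs known for each phase, the CHR (TTTGAA) and CCAAT boxes for mitosis and the E2F site (TTTNGCGC) for S phase, in capitals on either strand.
CDC20 (chr1:43358781-43358980, plus strand): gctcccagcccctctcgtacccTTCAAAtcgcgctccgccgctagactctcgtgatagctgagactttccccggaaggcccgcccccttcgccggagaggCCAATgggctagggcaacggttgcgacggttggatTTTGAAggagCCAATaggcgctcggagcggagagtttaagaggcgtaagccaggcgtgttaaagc
MCM6 (chr2:135876444-135876643, minus strand): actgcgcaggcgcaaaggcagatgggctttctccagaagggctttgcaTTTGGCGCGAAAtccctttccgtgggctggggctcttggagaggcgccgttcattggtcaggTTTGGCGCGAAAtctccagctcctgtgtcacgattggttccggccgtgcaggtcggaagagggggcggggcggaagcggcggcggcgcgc
MCM6, a helicase subunit, fell from 388, 403 and 377 to 206, 172 and 182 CPM (log2 change -1.06, SE 0.11, adjusted p = 4.0e-10). The CHR letters were in 37 of 53 (69.8%) of the mitotic promoters against 15.2% of all, and CCAAT in 39 of 53 (73.6%) against 34.6%. The E2F letters were in 16 of 46 (34.8%) of the S phase promoters against 1.79%.

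Regulators of G1 were mixed, with 7 of 30 tested higher, near the 20.2% of all genes, and 13 lower (median log2 change -0.35). CCND1 (cyclin D1) went from 0.272, 0.804 and 0.110 to 9.64, 10.1 and 10.1 CPM (log2 change 5.15, SE 0.39, adjusted p = 6.9e-13), whereas CCND3, CDK2 and CDK4 fell, with log2 changes of -0.84, -1.24 and -0.87. The antiproliferative BTG1 and BTG2 rose by log2 2.95 (SE 0.19, adjusted p = 1.2e-14) and 3.13 (SE 0.17, adjusted p = 2.3e-16). E2F7, a repressor of E2F targets, and CDKN3, a phosphatase of CDKs, fell, with log2 changes of -2.74 (SE 0.18, adjusted p = 3.7e-14) and -2.47 (SE 0.16, adjusted p = 1.3e-14). The CDK inhibitors CDKN1A (p21) and CDKN1B (p27) were not called, at 5.39, 3.01 and 5.98 CPM and 10.4, 11.4 and 12.2 CPM at 36 h against 4.11, 6.16 and 2.86 CPM and 12.0, 19.7 and 12.7 CPM at rest.

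In the ribosome biogenesis list 33 of 46 were lower and 1 higher, with a median log2 change of -0.52. LYAR, MRTO4 and DKC1 fell, with log2 changes of -1.54 (SE 0.17, adjusted p = 3.8e-09), -1.18 (SE 0.14, adjusted p = 1.9e-08) and -1.12 (SE 0.16, adjusted p = 4.4e-07), and the nucleolar NPM1 and NCL at log2 -0.89 and -0.63. Of the cytosolic ribosomal protein genes 29 of 60 were lower and 0 higher, none by as much as 2-fold, and the other 31 were not called. RPS6 went from 3611, 3199.6 and 3238 to 2165, 1818 and 1994 CPM (log2 change -0.75, SE 0.13, adjusted p = 2.3e-05). The constitutive proteasome had 13 of 30 lower and 1 higher, PSMA6 at log2 -1.13 (SE 0.10, adjusted p = 5.5e-11), and 20 were lower with a replicate block in the fit. Heat shock genes had 16 of 25 lower and 1 higher (BAG3). HSPA6, an inducible chaperone outside that list, went from 8.22, 11.1 and 11.4 to 0.634, 0 and 0.188 CPM (log2 change -4.93, SE 0.59, adjusted p = 2.1e-08), DNAJB1 fell, with a log2 change of -1.39 (SE 0.10, adjusted p = 9.0e-14) and the mitochondrial HSPD1 at log2 -0.93 (SE 0.13, adjusted p = 4.6e-07).

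Genes of the unfolded protein response were lower in 15 of 37 and higher in 8, the latter a share near the 20.2% of all genes tested. HSPA5 (BiP), the main chaperone of the endoplasmic reticulum, went from 2317, 2086 and 2329 to 717, 540.3 and 638 CPM (log2 change -1.83, SE 0.11, adjusted p = 1.0e-15). SDF2L1, HERPUD1 and HSP90B1 fell, with log2 changes of -1.86 (SE 0.11, adjusted p = 3.6e-15), -1.68 (SE 0.10, adjusted p = 3.8e-15) and -1.1 (SE 0.09, adjusted p = 1.2e-12), whereas EDEM1 and ERN1 rose by log2 1.18 and 0.68. Without the replicate 2 library at rest the number higher was 4. In the amino acid stress list 16 of 35 were higher and 6 lower, the latter near the 19% of all genes tested. SESN2, CHAC1, WARS and ASNS rose by log2 2.23 (SE 0.18, adjusted p = 1.5e-12), 1.99 (SE 0.24, adjusted p = 3.3e-08), 1.76 (SE 0.14, adjusted p = 2.4e-12) and 1.26. PHGDH, the entry to serine synthesis, fell, with a log2 change of -1.63 (SE 0.12, adjusted p = 8.2e-13). The number lower was 3 without replicate 1 at rest and 2 without replicate 1 at 36 h.

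Of 29 glycolysis genes 12 were lower, most of them enzymes between glucose phosphate and lactate, and 7 were higher, near the share of all genes (median log2 change -0.28). LDHA, lactate dehydrogenase, went from 2814, 2686 and 2821 to 833, 623 and 738 CPM (log2 change -1.92, SE 0.13, adjusted p = 1.9e-14). PGK1, ENO1, TPI1, GAPDH and GPI fell, with log2 changes of -1.33, -1.16, -1.04, -0.81 and -0.85, and PKM was not called. The transporters SLC2A3 (GLUT3) and SLC16A3 (MCT4) rose by log2 2.07 (SE 0.14, adjusted p = 3.3e-14) and 1.48, and the hexokinases HK1 and HK2 by log2 1.15 and 0.79. Nuclear-encoded subunits of oxidative phosphorylation were lower in 28 of 55 and higher in 4 (median log2 change -0.31), and no fall reached 2-fold. SDHB fell, with a log2 change of -0.72 (SE 0.10, adjusted p = 4.7e-07) and CYCS fell, with a log2 change of -0.82 (SE 0.12, adjusted p = 1.3e-06). The 13 protein genes of the mitochondrial genome had 7 higher and 2 lower. MT-ND5 rose by log2 0.64 (SE 0.10, adjusted p = 5.2e-06) and MT-ATP6 by log2 0.50 (SE 0.09, adjusted p = 3.1e-05), while MT-CO2 and MT-CO3 fell, with log2 changes of -0.40 and -0.31.

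Cholesterol genes were lower in 22 of 34 and higher in 4. LSS, which closes the sterol ring system, went from 359, 368 and 422 to 117, 116 and 116 CPM (log2 change -1.72, SE 0.13, adjusted p = 2.3e-13). EBP and INSIG1 fell, with log2 changes of -1.24 and -0.94, and the regulator SREBF1 at log2 -1.85, while SREBF2 and TM7SF2 rose by log2 0.61 and 1.34. In fatty acid metabolism 11 of 30 were higher and 8 lower. The desaturases SCD and FADS1 fell, with log2 changes of -1.43 (SE 0.11, adjusted p = 3.3e-13) and -1.56 (SE 0.10, adjusted p = 3.6e-15). CPT1A and ACADVL, which carry fatty acids into and through mitochondrial oxidation, rose by log2 1.48 (SE 0.11, adjusted p = 6.0e-13) and 1.28 (SE 0.15, adjusted p = 7.2e-09).

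Survival and death genes rose more often than they fell, 16 of 34 against 2. BCL2A1, an NF-kB target that opposes death, went from 0.155, 0 and 0.0732 to 39.8, 36.3 and 41.8 CPM (log2 change 8.55, SE 0.55, adjusted p = 1.1e-14). BCL2 and MCL1, also protective, rose by log2 1.75 and 1.03. BIK, which promotes death, rose from 25.4, 32.4 and 27.2 to 303, 283 and 265 CPM (log2 change 3.34, SE 0.14, adjusted p = 2.2e-19), and CASP9 by log2 2.39. BID, which links death receptors to mitochondria, fell from 248, 322 and 264 to 52.1, 43.7 and 40.9 CPM (log2 change -2.61, SE 0.16, adjusted p = 3.3e-15). Of p53 targets 12 of 23 were higher and 4 lower, the latter near the 19% of all genes tested. SESN1, SESN2, TP53I3 and TNFRSF10B rose by log2 2.03, 2.23, 1.56 and 1.17, AEN fell, with a log2 change of -1.34 (SE 0.15, adjusted p = 3.2e-09), and CDKN1A, MDM2, BAX and BBC3 were not called.

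Adhesion and homing genes had 14 of 34 lower, against 19% of all genes tested, and 8 higher, a share near the 20.2% of all. SELPLG, the selectin ligand PSGL-1, went from 228, 178 and 233 to 16.6, 15.9 and 16.7 CPM (log2 change -3.70, SE 0.31, adjusted p = 8.8e-12). CD47 and ITGAL (CD11a) fell, with log2 changes of -2.01 (SE 0.11, adjusted p = 5.4e-16) and -1.90 (SE 0.22, adjusted p = 1.1e-08), and CXCR4, S1PR1 and ITGA4 at log2 -0.77, -1.83 and -1.25. GPR183, an oxysterol receptor, rose by log2 2.34 (SE 0.26, adjusted p = 5.4e-09), and the integrin partners ITGB1 and ITGB2 by log2 0.73 and 0.61. Among annexins and cytoskeletal genes 8 of 26 were lower and 6 higher, the latter again near the share of all genes: ANXA1, S100A10, TAGLN2 and VIM fell, with log2 changes of -2.66, -1.71, -1.70 and -1.26, while LGALS1 rose by log2 2.61. Chromatin genes were lower in 17 of 36 and higher in 9, the latter near the share of all genes. HMGB2, UHRF1, HMGA1 and HMGB1 fell, with log2 changes of -2.33 (SE 0.13, adjusted p = 3.4e-16), -2.20 (SE 0.13, adjusted p = 3.1e-15), -1.98 (SE 0.14, adjusted p = 4.9e-14) and -1.90 (SE 0.10, adjusted p = 8.4e-17), while HDAC9, KDM6B and TET2 rose by log2 1.69, 1.72 and 1.09. Lysosome and autophagy genes were higher in 20 of 36 and lower in 5, among them NBR1, TPP1, CTSD and MAP1LC3B at 1.36, 1.28, 1.03 and 0.86.

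The most abundant transcripts also shifted. PRDX1, a peroxidase that removes hydrogen peroxide, held 899, 822 and 835 CPM at rest and 6106, 5309 and 6061 CPM at 36 h (log2 change 2.77, SE 0.15, adjusted p = 2.1e-16). MT-RNR2, the large mitochondrial ribosomal RNA, went from 42849, 42659 and 42302 to 59909, 64557 and 66759 CPM (log2 change 0.58, SE 0.12, adjusted p = 1.9e-04), and MALAT1, a nuclear non-coding RNA, from 2030.0, 2261 and 1658 to 3387, 4147 and 3712 CPM (log2 change 0.92, SE 0.15, adjusted p = 4.7e-06). The largest losses in CPM were in GAPDH, from 5168 to 2938, ENO1, from 3921 to 1752, LDHA, HSPA8, from 5464 to 3436, HSPA5 and TUBA1B, from 2259 to 646.

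The other WT times place the 36 h levels. Means over 3 libraries at 6, 12, 24 and 36 h are given in that order, and each series shares its resting libraries with the comparison above. CD200 held 0.464, 7.01, 159.9 and 406 CPM, and CTSW 10.2, 13.3, 214 and 481 CPM, so their levels were still low at 12 h and highest at 36 h. CSF2 (2.12, 2.87, 41.9 and 120.2 CPM) and XCL1 (6.67, 39.4, 513 and 843 CPM) had the same order. The XCL1 mean at 24 h had an SD of 322 CPM, and its change from 24 to 36 h was not called (log2 change 0.72, SE 0.57, adjusted p = 0.55). Other genes were highest earlier. GZMB held 229.8, 85.1, 17.7 and 16.8 CPM, GBP5 76.0, 202, 58.3 and 90.6 CPM and EGR1 313, 561, 217 and 173 CPM. HSPA5 was at 6846 CPM at 6 h, above its 2244 CPM at rest, before 996, 653 and 632 CPM, and ANXA1 went through 396, 384, 76.0 and 28.9 CPM from 184 CPM at rest. DNTT stood at 76.6, 10.9, 6.61 and 0.660 CPM and RRM2 at 479, 202, 116 and 129 CPM, so in CPM most of either fall had happened by 12 h. On the log2 scale the change from rest was -4.03 at 12 h and -7.89 at 36 h for DNTT, and -2.15 and -2.80 for RRM2.

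**Figure D4:**
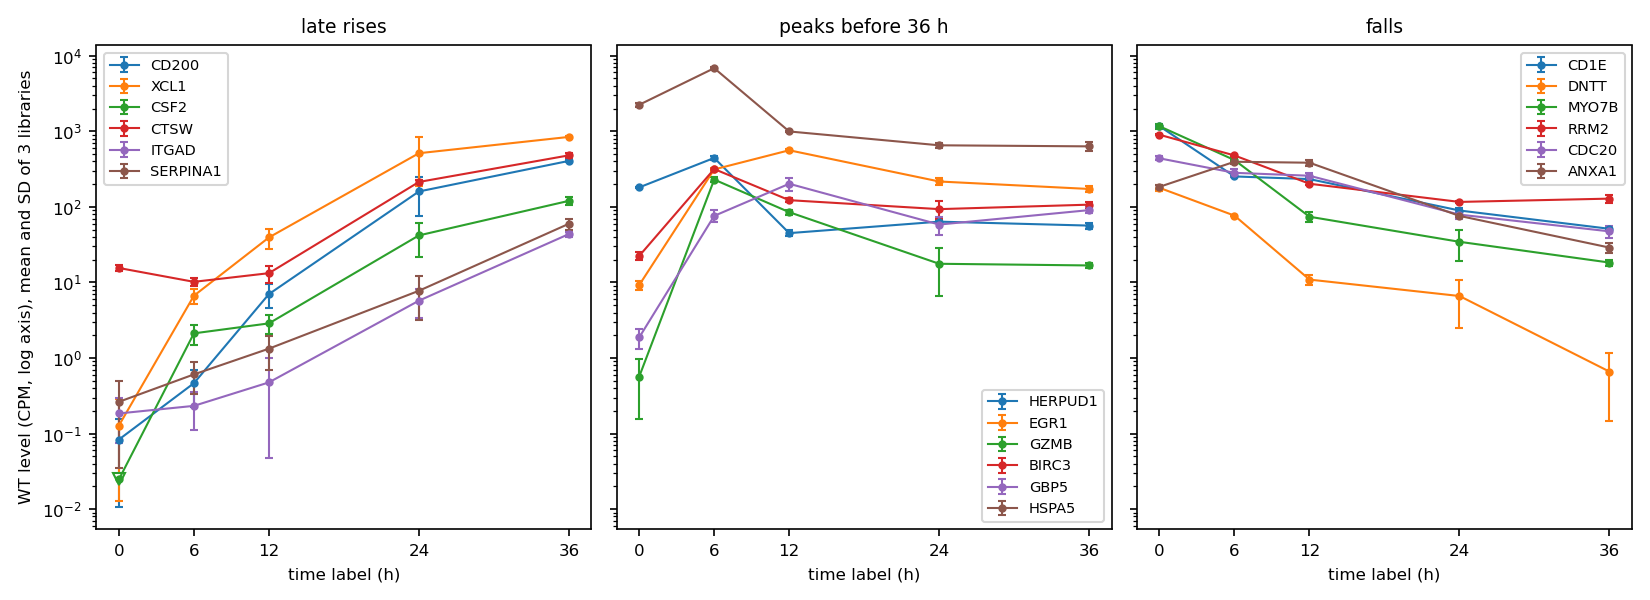
Level of 18 genes in the WT libraries at 0, 6, 12, 24 and 36 h (points, mean of 3 libraries; bars, SD, with lower bars that would cross 0 shortened), on a log axis of CPM; the open triangle marks 0 counts. CD200 reached 406 CPM at 36 h, whereas GZMB stood at 229.8 CPM at 6 h and 16.8 CPM at 36 h.

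Between 24 and 36 h fewer genes moved. There were 1551 genes called (7.2%), 996 higher (4.62%) and 555 lower (2.57%), so 64.2% of calls were higher, against 45.4% with upper-quartile scaling of the libraries. Of the genes higher at 36 h than at rest, 632 were also higher than at 24 h and 62 were lower, and of those lower than at rest 343 were also lower than at 24 h and 80 were higher. Without replicate 3 at 36 h the numbers higher and lower were 534 and 275, without replicate 2 at 36 h the number lower was 272, and without replicate 11 at 24 h it was 350. SH3BGRL2 went from 2.30 ± 1.28 to 22.0 ± 2.03 CPM (SD, n = 3), a log2 change of 3.27 (SE 0.44, adjusted p = 1.1e-05). SERPINA1, the elastase inhibitor, went from 7.76 ± 4.6 to 59.8 ± 10.0 CPM (log2 change 2.95, SE 0.31, adjusted p = 2.2e-07) and ITGAD, an integrin alpha chain, from 5.74 ± 2.35 to 43.7 ± 3.24 CPM (log2 change 2.92, SE 0.29, adjusted p = 7.4e-08). SNTB1, MAFF and ATP5D rose by log2 2.96 (SE 0.33, adjusted p = 1.1e-06), 2.92 (SE 0.47, adjusted p = 1.3e-04) and 2.85 (SE 0.50, adjusted p = 2.8e-04). Downward, ALDH1A2, which makes retinoic acid, went from 189 ± 87.6 to 48.2 ± 8.27 CPM (log2 change -1.96, SE 0.28, adjusted p = 2.4e-05). CCR4, ETV6, ADAMTS1, CD300A and PGLYRP4 fell, with log2 changes of -1.96, -1.87, -1.84, -2.41 and -2.13. By list, 24 of 63 genes of G2 and mitosis were lower still and 1 higher, 10 of 54 interferon-stimulated genes were higher and 1 lower, and 7 of 19 cytotoxic granule genes were higher and 1 lower. In the S phase list 3 of 57 were higher and 1 lower.

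In the line labelled KO the change from 0 to 36 h differed from the WT change, by the interaction term of the same fit, for 2012 genes (9.33%): 1016 with a more positive change in KO (4.71%) and 996 with a more negative one (4.62%). The more positive made up 50.5% of calls, and 60.7% with upper-quartile scaling. Differences at rest enter this term. HSPA5, which fell in WT, was already lower in KO at rest, at 675 ± 64.3 CPM against 2244 ± 137 CPM in WT, and stood at 996 ± 97.0 CPM at 36 h (SD, n = 3), a log2 difference of changes of 2.39 (SE 0.15, adjusted p = 4.5e-13). ENO1 likewise went from 1995 ± 377 to 2755 ± 146 CPM in KO while it fell in WT (log2 difference 1.63, SE 0.20, adjusted p = 1.4e-06). LDHA fell in both, from 1669 to 1032 CPM in KO (log2 difference 1.23, SE 0.17, adjusted p = 1.4e-05). CD69 rose in both from a lower level in KO, 8.55 to 815 CPM (log2 difference 1.34, SE 0.27, adjusted p = 0.0012). MT-RNR2 fell in KO from 55474 ± 3869.9 to 31788 ± 4556 CPM, against its rise in WT (log2 difference -1.38, SE 0.17, adjusted p = 1.5e-06).

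Larger differences of change were found in genes of lower level. MGLL, monoacylglycerol lipase, was not called in WT, at 3.64 ± 1.96 and 3.28 ± 0.712 CPM, and went from 2.07 ± 1.02 to 37.2 ± 1.92 CPM in KO (log2 difference 4.67, SE 0.43, adjusted p = 5.2e-09). IL1RN, the interleukin-1 receptor antagonist, reached 11.4 ± 1.46 CPM in WT and 91.0 ± 3.73 CPM in KO, where it had 0 counts at rest, so its fitted difference is no bound (adjusted p = 0.01). TNS3, F5, GRIK4 and XIRP1 were at 78.2, 35.6, 21.9 and 57.5 CPM in KO at 36 h against 16.5, 3.62, 3.26 and 4.21 CPM in WT. TUBB3, a beta tubulin, was not called in WT (12.2 and 10.5 CPM) and fell in KO from 26.4 to 1.34 CPM (log2 difference -4.08, SE 0.45, adjusted p = 1.9e-07). SH3BGRL2 and IL13 were at 22.0 and 20.2 CPM in WT and 1.53 and 2.18 CPM in KO at 36 h.

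By list, changes more positive in KO were called for 22 of 46 ribosome biogenesis genes, 16 of 60 ribosomal protein genes, 15 of 34 cholesterol genes, 13 of 37 genes of the unfolded protein response, 12 of 29 glycolysis genes and 9 of 30 proteasome genes, with 0 more negative in each. The genes of G2 and mitosis had 22 of 63 more negative and 0 more positive, and the mitochondrially encoded genes 7 of 13 and 0. In the S phase list 10 of 57 were more positive and 1 more negative. Chemokines had 0 called in either direction. IL2, CSF2, SLAMF6 and TBX21 were not called either, with adjusted p from edgeR of 0.68, 0.75, 0.082 and 0.38. Mean levels at 36 h in KO and WT were 172 and 59.0 CPM (IL2), 241 and 120 CPM (CSF2) and 21.3 and 9.05 CPM (TBX21). They were 528 and 63.0 CPM for CCL4, 1617 and 843 CPM for XCL1, and 0.896 and 5.04 CPM for IL8. With few or 0 counts at rest, the SE of the log2 difference was 3.89 (IL2), 3.81 (CSF2) and 7.18 (CCL4). Large differences could therefore be missed. A p that misses the threshold does not show that the genotypes changed alike.

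**Figure D5:**
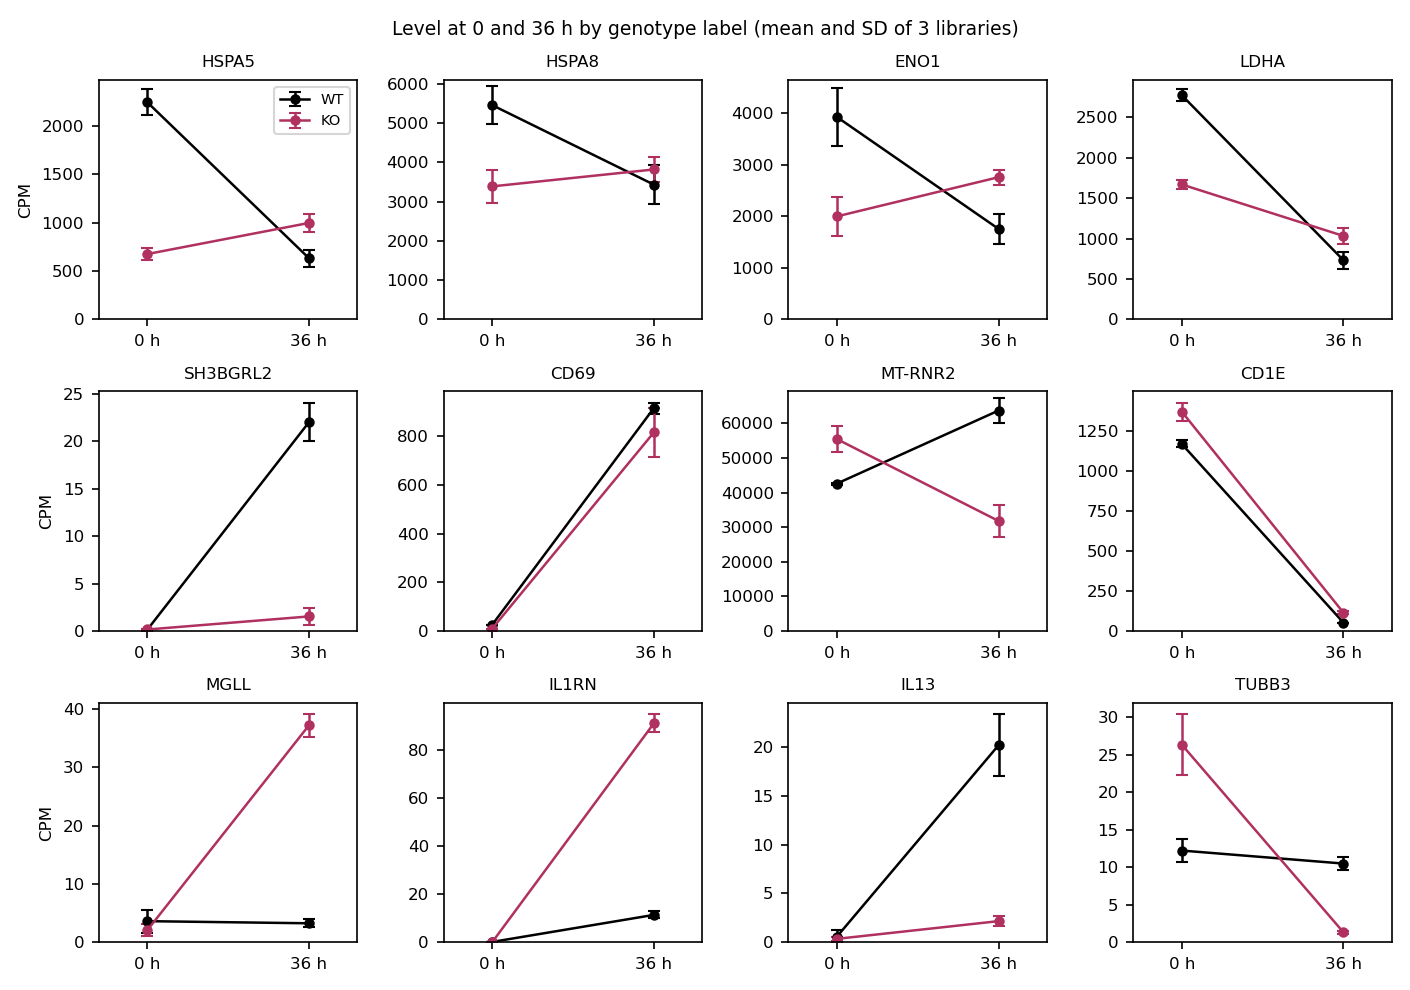
Level (CPM, mean and SD of 3 libraries, axis from 0) at 0 and 36 h of 12 genes whose change differed between WT (black) and the line labelled KO (red). HSPA5 started at 2244 CPM in WT and 675 CPM in KO and the lines ended at 632 and 996 CPM.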

How the data were processed

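Gene counts of 30 RNA-seq libraries were used as deposited; of these, 6 form the comparison of WT cells at 36 h and 0 h. Per the submitters' processing notes the authors used cutadapt, STAR and DESeq2 with GRCh37 (hg19); which tool counted the reads, and on which annotation, is not given in the sources used here. The deposited values are expected counts per gene symbol: 0.177% were not whole, in 195 of 54300 symbols (CKS1B and RBL1 in the lists here), and were rounded. Genes with enough counts by filterByExpr (minimum 10) were fitted in edgeR 4.0.16 (R 4.3.3) with 1 quasi-likelihood model of 10 groups, scaling by the trimmed mean of M-values and Benjamini-Hochberg adjustment over 21554 genes. A group at 0 counts was held at 3 counts over its 3 libraries, which covers counting error only. On simulated data of 19190 genes for the 36 h against 0 h comparison, 74% of 2-fold and 100% of 4-fold changes (100 each) were recovered, and 8 unchanged genes were called. All genes were simulated with the same spread (dispersion 0.03), and the genes of lowest level were given no change. The recovery therefore does not describe genes of few counts or of larger spread.

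The genes named are the 12 largest rises and 12 largest falls at 36 h among called genes reaching 10 CPM in libraries that do not overlap, the 6 largest gains and 6 losses in CPM, up to 4 members of each list by smallest p, SLAMF6, IL2, IFNG, TBX21 and CD69, and 6 each way for 36 h against 24 h and for KO minus WT. Results for some of these genes are not reported here. Other list members were named as examples after their values were seen. The comparison and the lists were chosen with earlier results of these data known. Depth set the precision: 7593309 to 28234040 counts per library. Promoter sequences are from RefSeq (GRCh38.p14). Alternatives were scaling, filters, DESeq2 1.42.0, a fit of the compared libraries alone, a replicate block and leaving out each library.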

Additional observations from a re-analysis of the deposited data

Results flagged for a closer look

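The genes below had a change from 0 to 36 h that differed between WT cells and the line labelled KO, by the interaction term in edgeR with Benjamini-Hochberg adjustment; each value is the KO change minus the WT change in log2, with 3 libraries in each of the 4 groups, and mean levels in CPM are given at 0 h and then 36 h. Of chaperone and glycolysis genes, HSPA5 differed by log2 2.39 (WT 2244 and 632, KO 675 and 996) and ENO1 by log2 1.63 (WT 3921 and 1752, KO 1995 and 2755). HSPA8 differed by log2 0.84 (WT 5464 and 3436, KO 3391 and 3822), LDHA by log2 1.23 and HSPA6 by log2 3.55, the last from 10.3 to 0.274 in WT and 1.88 to 0.725 in KO. For all of these genes the level at rest was lower in KO than in WT.

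Among the genes that rose in WT, CD69 differed by log2 1.34 (WT 24.4 and 915, KO 8.55 and 815), with the larger log2 rise in KO. SH3BGRL2 (WT 0.115 and 22.0, KO 0.149 and 1.53), IL13 (WT 0.586 and 20.2, KO 0.364 and 2.18) and SNTB1 (WT 3.17 and 14.7, KO 3.54 and 5.88) differed by log2 -4.88, -3.11 and -1.49. CYTIP differed by log2 -3.15 although the lines ended close together (WT 0.210 and 16.6, KO 1.8 and 15.1); KO began higher. IL1RN, GRIK4, F5, TNS3 and XIRP1 were given fitted differences of 7.72, 6.00, 5.11, 4.30 and 4.30, which depend on a prior count for IL1RN, with 0 counts in KO at rest. Their KO levels at 36 h were 91.0, 21.9, 35.6, 78.2 and 57.5 CPM. GRIK4 stood at 0.0586 ± 0.102 CPM (SD) in KO at rest, so its fitted difference also rests on very few counts.

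Among the genes that fell in WT, CD1E differed by log2 0.92 (WT 1167 and 51.2, KO 1369 and 114), PDGFC by log2 2.00 (WT 12.6 and 0.5, KO 8.76 and 1.46) and ETV6 by log2 1.55 (WT 47.2 and 6.74, KO 39.9 and 16.6), all with the smaller fall in KO. ADAMTS1 and ALDH1A2 differed by log2 -1.72 (WT 33.8 and 7.24, KO 31.9 and 2.15) and -1.71 (WT 288 and 48.2, KO 51.7 and 2.70), with the larger fall in KO. Outside these, MGLL, PI16 (WT 65.0 and 52.1, KO 22.1 and 1.5) and TUBB3 differed by log2 4.67, -3.53 and -4.08. MT-RNR2 differed by log2 -1.38. The share of mitochondrial transcripts was 7.19 to 7.85% in KO at rest and 4.49 to 5.59% at 36 h, and its part in these differences was not tested.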

How the results depend on the processing

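For 36 h against 0 h the counts stayed within 1.5 times under every alternative run: 4031 higher and 3581 lower without a filter, 3996 and 3865 at a minimum count of 50, 4386 and 4091 with DESeq2's size factors, 4228 and 4213 with upper-quartile scaling, 4539 and 4204 by DESeq2's test, 4232 and 4474 with only the libraries compared. Leaving out 1 library at a time gave 3796 to 4148 higher and 3496 to 3713 lower; 3142 and 2914 genes were called that way in every such fit. The titles of these libraries share the numbers 1 to 3. Deviations of same-numbered libraries correlated at 0.020, 0.014 and 0.031 over all genes tested. Over the 9128 genes of at least 10 CPM they correlated at 0.251, 0.184 and 0.122. In either set of genes each library correlated best with its own number, though the values over all genes tested were small. Whether the numbers pair the libraries was not tested. The libraries were not taken as pairs, since no label says so. With a replicate block 4370 genes were higher and 4605 lower. No paired analysis was possible for the other contrasts because their groups share fewer than 2 numbers.

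For 36 h against 24 h the number lower was 842 at a minimum count of 50, 1000 with upper-quartile scaling, 892 by DESeq2's test and 301 with only the libraries compared, and without 1 library it ran from 272 to 522 (higher: 534 to 845). For KO minus WT the counts without 1 library ran from 678 to 1014 more positive and 675 to 982 more negative. Of 212 named genes 203 were called; across alternatives 2720 values kept direction and call, 21 lost the call (CD79A, DCN, KLRF1, KRT8, PDGFRB and PGLYRP4), 5 gained it (among them CD14, FCRLA and PI16) and 0 reversed. The causes were not tested. Depth limits genes with few counts at one time. In WT at 36 h against 0 h, those with 1 to 3 counts are given by level, most with an adjusted p, and without a fitted log2 change. Fitted changes such as those of BCL2A1 (6 counts at rest) or RAG2 (9 counts at 36 h) rest on few counts, as does the KO minus WT difference of GRIK4.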

Other observations

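The erythroid list had 1 gene called, AHSP, the chaperone of alpha globin, which had 10 counts over the libraries at rest and 246 at 36 h (0.194, 0.134 and 0.146 and 4.25, 4.83 and 5.03 CPM). The globin genes HBA1 and HBD had 0 counts at both times.

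Within the 36 h group the replicate 3 library held the highest level of several early response genes. DUSP1 was at 6.43, 12.6 and 27.8 CPM, DUSP2 at 197, 241 and 498 CPM, MAFF at 11.1, 12.9 and 29.1 CPM and PLK3 at 16.0, 21.2 and 37.5 CPM. These genes were chosen after their values were seen.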
